A study of Arabidopsis thaliana with 4 samples.

Results

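The PP2-A F-box genes of Arabidopsis thaliana are PP2-A11, PP2-A12, PP2-A13, PP2-A14 and PP2-A15. They join an F-box to the lectin domain of phloem protein 2 (PP2). They were taken by identifier, RefSeq annotates an F-box in all 5, and they make up 5 of the 37885 genes in the deposited count table. All 5 had counts in every library and passed the expression filter. The group was selected on the counts of PP2-A13, already known to vary between these libraries, and on the family name. The level and spread of PP2-A13 are therefore given as a description, with no test result. Poly(A)-selected RNA of whole prt6-1hyt1-1 seedlings gave 4 libraries, labelled as biological replicates. The seedlings were 7 days old, carried both the prt6-1 and the hyt1-1 mutation, and had been kept untreated in continuous light on agar without sucrose. The study sets them beside Col-0, prt6-1 and prt6-1erfvII seedlings, which were not analysed here, so that no value below compares genotypes. Whether the 4 samples came from separately grown plants is not given beyond the word biological, and any p-value measures only the spread between these samples.

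PP2 is the abundant lectin of phloem sap, made in companion cells and carried into sieve elements. The F-box is the part by which a protein binds the adaptor SKP1 and so joins an SCF ubiquitin ligase, built on the scaffold CUL1 with the RING protein RBX1, and the rest of the F-box protein picks the target. PP2-A13 is best known as a transcript that increases under low oxygen, in darkness and when sugar runs short, including on short days. It is often listed beside the targets of group VII ethylene response factors (ERFVIIs), which the N-degron ligase PRT6 sends to degradation when oxygen is present. Separate roles of the other members are not described here.

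RefSeq places the 5 genes on 3 chromosomes, and their positions are given on its build TAIR10.1, while the counts were made on TAIR10. PP2-A11 (AT1G63090) spans 23390968 to 23392873 of chromosome 1 on the minus strand, and PP2-A12 (AT1G12710) spans 4326739 to 4328616 of the same chromosome, also on the minus strand. PP2-A13 (AT3G61060) lies at 22602816 to 22604582 of chromosome 3 on the plus strand. PP2-A15 (AT3G53000) lies at 19653910 to 19656135 of the same chromosome and strand. PP2-A14 (AT5G52120), the longest locus, runs over 21176377 to 21180474 of chromosome 5 on the minus strand. PP2-A12 and PP2-A13 have 2 annotated transcripts each, with coding lengths of 876 and 1002 bases and of 873 and 876 bases, and the shorter coding sequence was used for both. In the coding sequences used, each gene has 3 coding exons. The first holds 312 to 333 bases, the last 424 to 472 bases, and the middle one exactly 119 bases in all 5. These coding sequences encode proteins that are 289, 291, 290, 291 and 300 residues long, in the order PP2-A11 to PP2-A15.

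**Figure D1:**
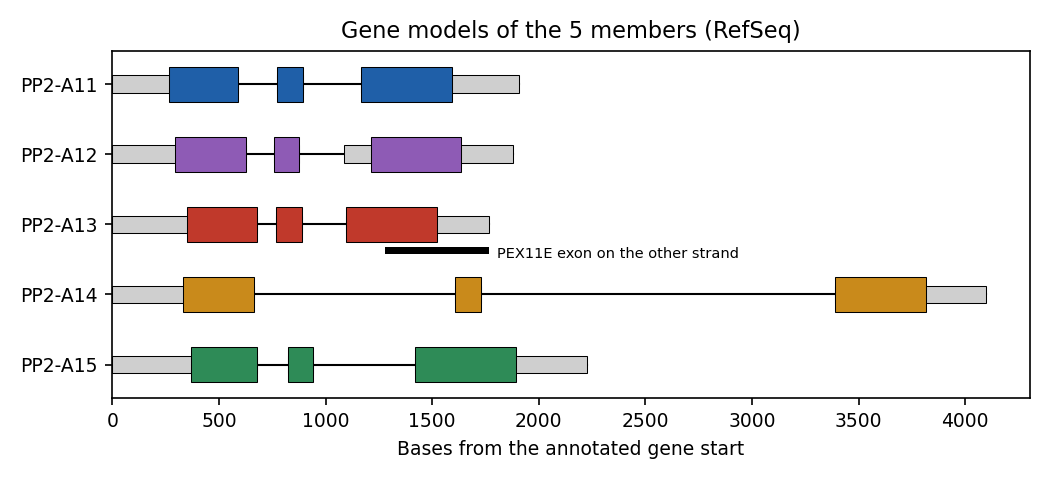
Gene models of the 5 genes in RefSeq, drawn to scale from the annotated gene start, with position in bases on the horizontal axis. Coloured boxes are the bases of the coding sequence used, grey boxes all other annotated exon bases, lines the introns, and the black bar the PEX11E exon bases on the other strand. Exon layout is shared, PP2-A14 has the longest introns, and only PP2-A13 has exons that overlap those of another gene, over 489 bases.

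The middle coding exon is shown because its shared length allows the genes to be set base by base without gaps, so that it can be seen how far reads from one member could be taken for another. The sequences are from RefSeq, 5′ to 3′ on the coding strand, with capitals for the bases that all 5 genes share. They come from chr1:23391982-23392100 (minus strand) for PP2-A11, chr1:4327741-4327859 (minus strand) for PP2-A12, chr3:22603584-22603702 (plus strand) for PP2-A13, chr5:21178748-21178866 (minus strand) for PP2-A14 and chr3:19654733-19654851 (plus strand) for PP2-A15.
PP2-A11: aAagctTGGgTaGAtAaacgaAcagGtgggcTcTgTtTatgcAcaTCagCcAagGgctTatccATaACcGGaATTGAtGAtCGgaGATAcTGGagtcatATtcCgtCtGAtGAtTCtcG
PP2-A12: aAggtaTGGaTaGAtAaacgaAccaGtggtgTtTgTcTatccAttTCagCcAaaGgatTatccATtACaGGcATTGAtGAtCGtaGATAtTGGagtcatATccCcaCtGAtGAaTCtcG
PP2-A13: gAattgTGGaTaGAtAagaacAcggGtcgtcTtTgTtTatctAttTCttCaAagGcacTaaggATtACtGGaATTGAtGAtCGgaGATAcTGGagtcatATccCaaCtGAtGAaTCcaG
PP2-A14: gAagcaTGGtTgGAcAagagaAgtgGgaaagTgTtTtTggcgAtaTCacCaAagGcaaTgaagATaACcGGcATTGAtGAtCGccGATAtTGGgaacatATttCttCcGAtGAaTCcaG
PP2-A15: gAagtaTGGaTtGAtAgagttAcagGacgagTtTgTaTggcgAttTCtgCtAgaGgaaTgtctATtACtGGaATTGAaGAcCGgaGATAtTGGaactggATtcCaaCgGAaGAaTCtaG
Of the 119 bases, 54 (45.4%) are the same in all 5 genes, and the longest unbroken stretches of capitals stand in the second part of the exon. Over the whole coding sequence, PP2-A11 and PP2-A12 are the closest pair, with 80.2% identity. PP2-A14 and PP2-A15 are the farthest apart, with 55.5%. PP2-A13 shares 62.9% with PP2-A11, 61.7% with PP2-A12, 58.9% with PP2-A14 and 58.5% with PP2-A15. Between the exons of any member and those of a gene that does not overlap it, the longest identical stretch is 32 bases, between PP2-A11 and PP2-A13. A longer read therefore differs between members by at least 1 base.

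The exons of PP2-A13 overlap those of PEX11E (AT3G61070), a peroxisome proliferation gene on the opposite strand, over 489 bases or 33.2% of its exon bases. The library kit was directional, but the strand setting of the counting is not given in the sources used here, so a count of PP2-A13 may include or lack reads from the shared stretch. PEX11E had 812, 893, 912 and 949 counts in replicates 1 to 4. Like PP2-A13 below, PEX11E was lowest in replicate 1, but its highest library was replicate 4 rather than replicate 3. Whether shared reads had a part was not tested. The other 4 members overlap no annotated exons.

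In the 250 bases before the annotated start, 4 motifs were searched on both strands. The G-box CACGTG is the core bound by many bZIP and bHLH factors. It occurs once in the window of PP2-A13, beginning 74 bases before the start, in no other member, and in 6.49% of the windows of 27443 protein-coding genes. The sugar-response element TATCCA occurs once before PP2-A12 and in 13.6% of all windows. Neither the GCC-box core GCCGCC, the classical site of ethylene response factors, nor the evening element AAAATATCT is in any of the 5 windows, and they are found in 1.87% and 2.36% of all windows. The motifs found do not overlap another searched motif. A match is no evidence of binding, and the absence of these letters concerns this window alone. Other sites that ethylene response factors may bind were not searched.

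The libraries held 24743656, 26155431, 25804589 and 24947145 counts in replicates 1 to 4, so depth differed little. PRT6 itself had 1659, 2016, 1858 and 1841 counts. These counts do not check the label, since no library with intact PRT6 was analysed. Replicate 2 stood apart in seed storage transcripts: the 4 seed markers summed to 112 CPM there (counts normalised to library size), against 6.84, 3.93 and 4.46 CPM in replicates 1, 3 and 4. Values without replicate 2 are given below where a result rests on it. All 18 phloem markers were detected, led by the sucrose exporter SWEET11 at 164 ± 8.66 TPM, while the sucrose loader SUC2 stood at 94.7 ± 3.14 TPM (SD, n = 4). TPM, a length-normalised level, is the count plus 0.5, divided by the summed exon length and scaled to the same total in every library, and it allows levels of different genes to be compared. In RNA of whole seedlings, fewer cells of a type and less RNA per cell cannot be told apart.

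PP2-A13 was the most abundant of the 5 transcripts, and the one that differed most between libraries. It had 905, 1215, 1490 and 1312 counts in replicates 1 to 4, or 38.7, 48.9, 60.5 and 55.4 TPM. Replicate 1 was the low library and replicate 3 the high one. Its mean of 50.9 ± 9.41 TPM (SD, n = 4) lay above that of 83.6% of the annotated genes past the expression filter.

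PP2-A11, the second in level, was close to even across the libraries. Its counts of 469, 529, 482 and 470 correspond to 20.4, 21.7, 19.9 and 20.2 TPM. The mean of 20.5 ± 0.778 TPM (SD, n = 4) lay above 62.8% of the genes past the filter. Replicate 2 was slightly above the others.

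PP2-A15 had 314, 302, 339 and 276 counts, or 12.3, 11.2, 12.6 and 10.7 TPM in replicates 1 to 4. Replicates 1 and 3 were a little above replicates 2 and 4. The mean of 11.7 ± 0.917 TPM (SD, n = 4) lay above 45.7% of the genes past the filter.

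For PP2-A12 the counts were 190, 210, 216 and 237, and the levels 7.81, 8.13, 8.43 and 9.62 TPM. Replicate 4 was the high library of this gene. It averaged 8.50 ± 0.792 TPM (SD, n = 4), above 36.8% of the genes past the filter.

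PP2-A14 was the lowest, with 170, 163, 158 and 191 counts and 7.19, 6.50, 6.35 and 7.99 TPM. As for PP2-A12, replicate 4 was the high library, but replicate 3 was here the low one. The mean was 7.01 ± 0.749 TPM (SD, n = 4), above 32.1% of the genes past the filter.

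**Figure D2:**
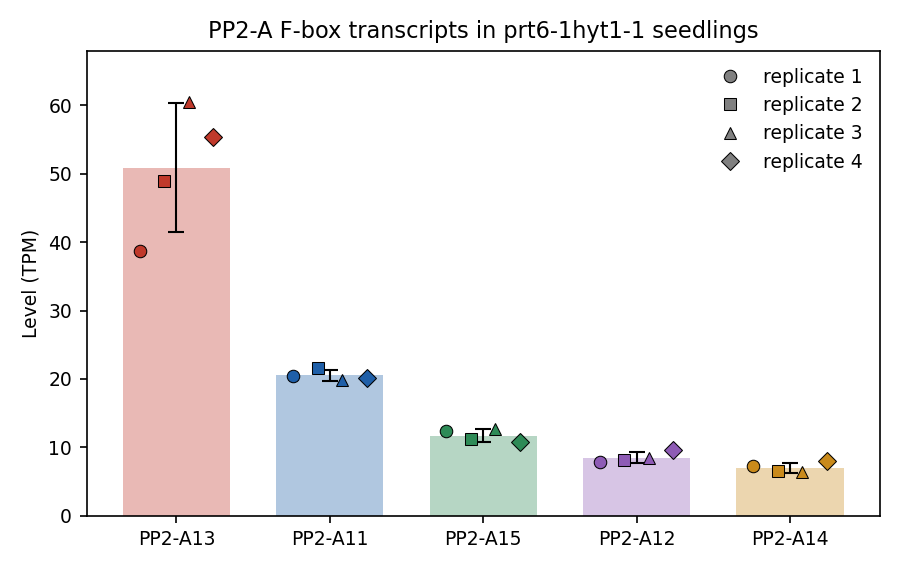
Level of each PP2-A F-box gene in TPM (vertical axis) in the 4 libraries of prt6-1hyt1-1 seedlings. Bars are means, error bars the SD over the 4 libraries, and symbols the single libraries. PP2-A13 spreads over 38.7 to 60.5 TPM, above every value of the other 4 genes, whose libraries lie close together.

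The order of the levels, PP2-A13 over PP2-A11 over PP2-A15 over PP2-A12 over PP2-A14, was the same in each of the 4 libraries. All 10 pairs of genes therefore kept their direction in 4 of 4 libraries. For pairs with PP2-A13 no test result is given, because the group was selected on its counts. For the others an exact two-sided sign-flip permutation test gave p = 0.125, the smallest value 4 libraries allow, so that no step of the order could pass 0.05 in this design. The upper steps were wide beside their spread. The log2 ratio of TPM within a library was 1.29 ± 0.30 for PP2-A13 over PP2-A11, a 2.45-fold step, and 0.81 ± 0.15 for PP2-A11 over PP2-A15, a 1.76-fold step (SD, n = 4). The lower steps were narrow. PP2-A15 over PP2-A12 gave log2 ratios of 0.66, 0.46, 0.58 and 0.16 in replicates 1 to 4, and PP2-A12 over PP2-A14 gave 0.12, 0.32, 0.41 and 0.27. Across libraries these neighbours were close: the lowest PP2-A15 level, 10.7 TPM, was above the highest PP2-A12 level, 9.62 TPM, whereas the ranges of PP2-A12 and PP2-A14 overlapped, with 7.81 TPM in replicate 1 for PP2-A12 and 7.99 TPM in replicate 4 for PP2-A14. From top to bottom, PP2-A13 was 7.19-fold above PP2-A14, a log2 ratio of 2.85 ± 0.34 (SD, n = 4).

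PP2-A13 alone made up 44.8%, 50.8%, 56.1% and 53.3% of the summed TPM of the 5 genes in replicates 1 to 4. Its mean share was 51.3 ± 4.83%, and 51.4 ± 5.91% without replicate 2. PP2-A11 held 21.0 ± 2.44%, PP2-A15 11.97 ± 1.66%, PP2-A12 8.63 ± 0.647% and PP2-A14 7.16 ± 1.07% (SD, n = 4). If no read from the stretch shared with PEX11E had been counted, and length were taken over the remaining 983 exon bases, the share of PP2-A13 would be 61.1 ± 4.64%, a calculation added after the data were seen. The sum of the other 4 genes was nearly constant, at 47.7, 47.5, 47.3 and 48.5 TPM, a highest-to-lowest ratio of 1.03. With PP2-A13 included, the sum was 86.4, 96.4, 107.8 and 104.0 TPM, a ratio of 1.25. The gap between the libraries in the summed level was thus that of PP2-A13.

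For the other 4 genes, differences between libraries beyond counting error were not detectable. A chi-square test of homogeneity asked, for every gene with at least 10 expected counts per library, whether its counts differed between libraries by more than Poisson error. After Benjamini-Hochberg adjustment over 20687 genes, 42.8% of all genes did so at 0.05. The share was lower with any replicate left out, at 26.6%, 35.2%, 30.9% and 35.7% without replicate 1, 2, 3 or 4. Of the 4 genes, 0 varied beyond counting error over all libraries, and 0 did at an unadjusted p under 0.05. The adjusted p was 0.128 for PP2-A15, 0.257 for PP2-A12, 0.321 for PP2-A14 and 0.496 for PP2-A11. Among genes with a mean count within 1.5 times that of each, the share that varied was 36.5%, 34.3%, 33.2% and 38.8% in the same order, so that most genes at these depths did not pass either. The coefficients of variation of the CPM values can be set beside what counting alone gives, and PP2-A15 stood farthest above it. They were 4.41% for PP2-A11 beside 4.53% from counting, 8.73% beside 5.70% for PP2-A15, 8.84% beside 6.85% for PP2-A12 and 9.13% beside 7.66% for PP2-A14. Differences of these sizes cannot be told from counting error at this depth.

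PP2-A13 had a coefficient of variation of 19.5%, beside 2.85% from counting error. At its depth, 52.5% of genes varied beyond counting error. Its biological coefficient of variation (BCV), estimated in edgeR from all 4 libraries, was 0.106, beside a trend of 0.0602 for genes at its expression. PP2-A13 was already known to vary between these libraries, so the rank that follows is a description and no separate result. The excess of 0.0459 lay above that of 98.1% of the 19940 genes past the filter, of which 34.2% had a BCV above the trend. Replicate 1 decided much of it: without replicate 1 the excess was 0.0106, and without replicate 2, 3 or 4 it was 0.0423, 0.0295 and 0.0489. For the other 4 genes the BCV was below the trend, with an excess of -0.00491 for PP2-A15 to -0.00985 for PP2-A14.

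**Figure D3:**
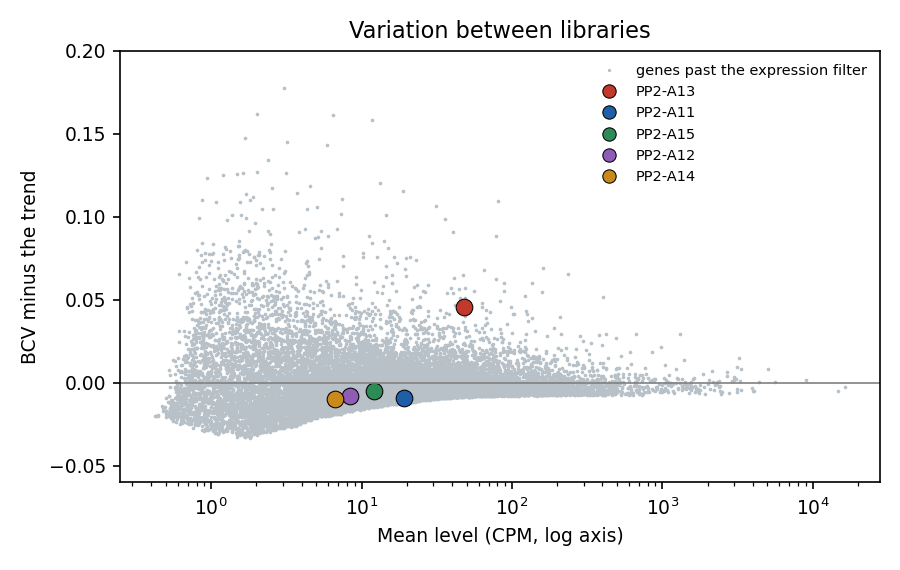
Excess of the BCV over the trend (vertical axis) against mean level in CPM (horizontal axis, logarithmic) for genes past the expression filter, in grey, and the 5 genes in colour. Grey points with an excess of 0.2 or more are not drawn. PP2-A13 sits at 0.0459, and the other 4 genes sit just below 0.

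The 5 genes did not share one pattern over the libraries. PP2-A13 deviated from its mean by -0.40, -0.02, 0.30 and 0.12 on the log2 CPM scale in replicates 1 to 4. Between replicate 3 and replicate 1 its CPM differed 1.62-fold, a log2 difference of 0.69. The same difference was 0.16 for PP2-A12, 0.08 for PP2-A15, 0.01 for PP2-A11 and -0.13 for PP2-A14, and that of PP2-A11 turned to -0.02 when libraries were scaled by their total counts. Lowest in replicate 1 and highest in replicate 3, the pattern of PP2-A13, was found in 10.7% of the genes past the filter and in no other member. PP2-A12 was also lowest in replicate 1, as were 28.6% of the genes past the filter, and PP2-A15 was also highest in replicate 3, as were 26.4%. PEX11E, on the opposite strand, had a log2 difference of 0.14.

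**Figure D4:**
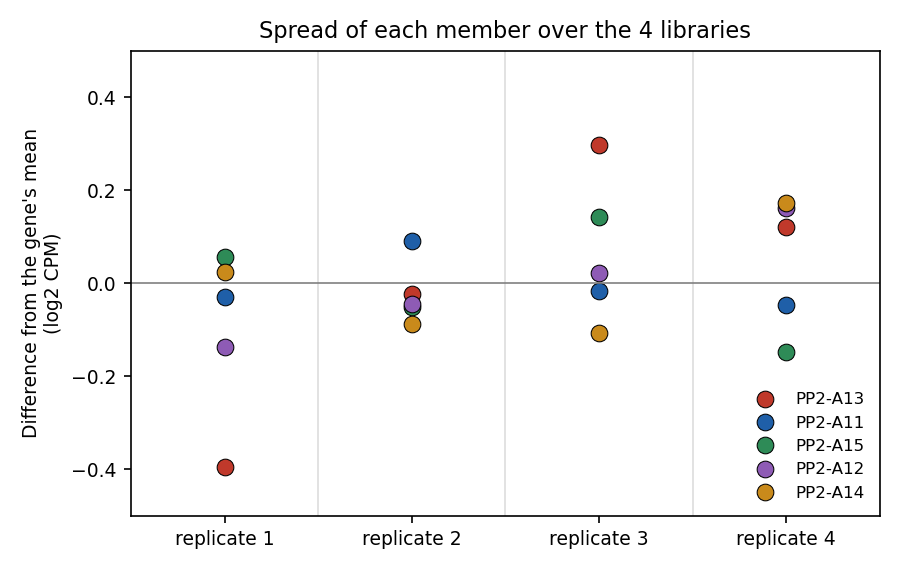
Difference of each PP2-A F-box gene from its own mean over the 4 libraries, in log2 CPM (vertical axis), by library (horizontal axis). PP2-A13 runs over -0.40 to 0.30, and the other 4 genes stay within -0.15 and 0.17.

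The genes whose deviations over the 4 libraries were most like those of PP2-A13 were sought among the 12505 other genes that averaged 10 CPM or more. Likeness was the root-mean-square difference of the 4 log2 deviations. Closest was AT4G27745, at 0.0267, with 208, 278, 340 and 288 counts. It was followed by the cis-prenyltransferase gene cPT4 at 0.0346, with 948, 1288, 1555 and 1306 counts, and by SQP1 at 0.0436, with 617, 877, 1025 and 871 counts. Next came the β-xylosidase gene BXL1 at 0.0475 and AT5G16980 at 0.0509. BXL1 had 2925, 4002, 5051 and 4062 counts, and AT5G16980 had 388, 487, 612 and 511. In all 5, replicate 1 was the low library and replicate 3 the high one, and replicates 2 and 4 stood between them. This follows from their selection by likeness to PP2-A13 and is no separate result. Only 4 genes lay within 0.05 of PP2-A13 and 56 within 0.1. Genes with little spread have many near neighbours: 1587 genes lay within 0.05 of PP2-A11, the nearest being AT2G21250 and AT3G08650. Within the same distance were 220 genes of PP2-A12, led by EER5 and PPa2, 189 of PP2-A14, led by SK1 and FIP37, and 309 of PP2-A15, led by CIPK20 and EMB1006. With 4 libraries, such a likeness rests on 4 points. For the genes other than PP2-A13, the deviations matched could not be told from counting error.

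Transcripts known to increase in darkness or on sugar starvation were mostly lowest in replicate 1 (12 of 14) and highest in replicate 3 (9 of 14). These were the low and high libraries of PP2-A13. The shares over all genes past the filter were 28.6% and 26.4%. Of the 14, 13 varied beyond counting error, against 42.8% of all genes. That share rose with depth, to 52.5% of genes near the depth of PP2-A13, and was not matched to the depth of any list. In 8 of the 14 (57.1%), replicate 1 was lowest and replicate 3 highest, against 10.7% of the genes past the filter. The median log2 difference of the list between replicate 3 and replicate 1 was 0.35, against 0.00 over the genes past the filter. Its summed level was 1460, 1622, 1883 and 1755 CPM in replicates 1 to 4. The largest excess BCV was that of BCAT2, a branched-chain aminotransferase, with 54, 100, 183 and 129 counts. SEN1, a dark-inducible gene, had 689, 842, 1369 and 1198 counts, and the asparagine synthetase gene ASN1 had 191, 306, 399 and 393. These 2 were chosen after their values were seen. The highest of the list was AT3G15450 at 623 ± 88.7 TPM, and the lowest was the β-glucosidase gene DIN2 at 1.40 ± 0.352 TPM (SD, n = 4). Whether sugar status had a part in the spread of PP2-A13 was not tested.

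Low-oxygen response genes other than PP2-A13 were also mostly lowest in replicate 1, in 23 of the 34 past the filter, and 18 were highest in replicate 3. The shares over all genes past the filter were 28.6% and 26.4%. Of 35 listed, 26 varied beyond counting error (74.3%), against 42.8% of all genes tested. Lowest in replicate 1 and highest in replicate 3 were 14 of the 34 past the filter (41.2%), against 10.7% of all genes past it. The median log2 difference between replicate 3 and replicate 1 was 0.30. Replicate 1 was low, with a median deviation of -0.16, but replicate 2 stood at 0.07, replicate 3 at 0.12 and replicate 4 at -0.04. In replicate 4, PP2-A13 deviated by 0.12 and the median of the starvation list was 0.10. Genes of the low-oxygen list lay on both sides of their means in that library. Whether the low-oxygen response had a part in the spread of PP2-A13 was not tested. The haemoglobin gene HB1, the highest, had 2069, 2768, 2630 and 2155 counts. NIP2;1, a channel protein gene with the largest excess BCV of the list, had 10, 39, 24 and 22 counts, and FHL, a partner of phytochrome A transport, was the lowest past the filter at 0.999 ± 0.432 TPM (SD, n = 4). Both lists were drawn up with earlier results of these libraries known.

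Phloem markers were nearly even in their sum. Of the 18, 6 varied beyond counting error (33.3%), against 42.8% of all genes tested. Lowest in replicate 1 and highest in replicate 3 were 2 (11.1%), near the 10.7% of all genes past the filter. The median log2 difference between replicate 3 and replicate 1 was -0.16. Their summed level was 706, 716, 690 and 711 CPM in replicates 1 to 4, highest over lowest 1.04. PP2-A1, the phloem lectin itself, without an F-box, had 2207, 2327, 2307 and 2339 counts, and at 92.5 ± 2.42 TPM it was above PP2-A13. The florigen transporter gene FTIP1 had the largest excess BCV of these markers, 0.00997, with 303, 306, 222 and 264 counts. NAC045, a regulator of sieve element enucleation, was the lowest at 0.569 ± 0.156 TPM (SD, n = 4).

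**Figure D5:**
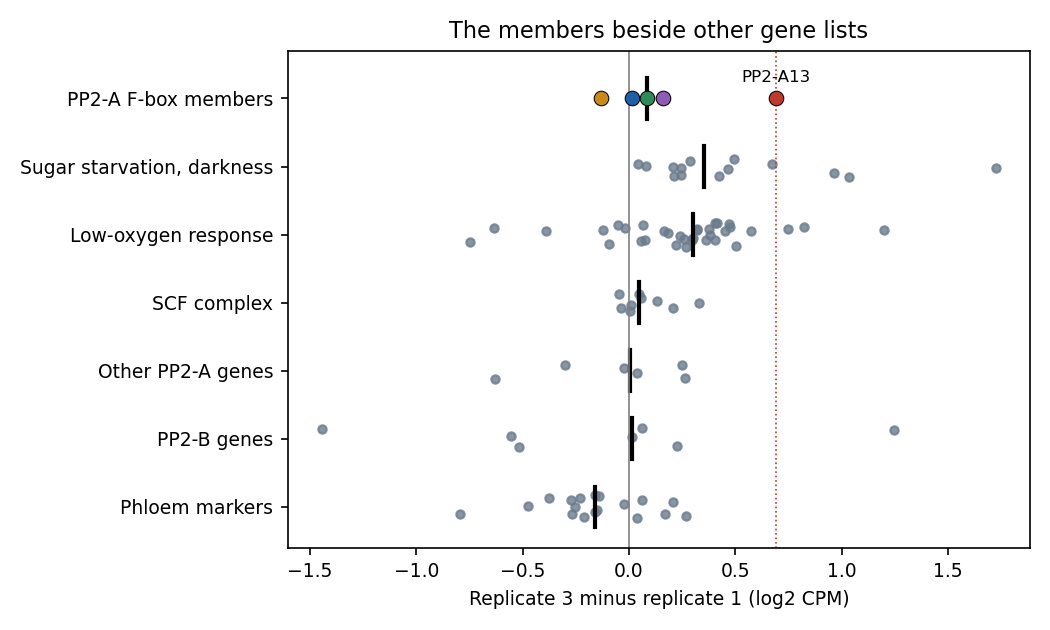
Difference between replicate 3 and replicate 1 in log2 CPM (horizontal axis) for the 5 PP2-A F-box genes and for the genes of 6 lists that passed the expression filter (vertical axis). Points are genes, black bars the list medians, and the dotted line marks PP2-A13 at 0.69. The medians are 0.35 for the starvation list, 0.30 for the low-oxygen list and -0.16 for the phloem markers.

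Among PP2 genes outside the F-box group, levels were mostly low. Of the 10 other PP2-A genes, 9 had a count and 6 passed the filter, with a median level of 3.60 TPM over all 10. PP2-A8 stood at 20.4 ± 3.37 TPM, PP2-A9 at 6.97 ± 1.17, PP2-A5 at 6.21 ± 0.755, PP2-A6 at 5.08 ± 1.20 and PP2-A3 at 2.12 ± 0.369 TPM (SD, n = 4). PP2-A2, PP2-A7 and PP2-A10 stayed at 21 counts or fewer in every library, and PP2-A4 had 0 counts in all 4. Of the 8 tested, 3 varied beyond counting error (37.5%), against 42.8% of all genes tested. PP2-A6 had 157, 144, 103 and 100 counts and PP2-A8 503, 621, 416 and 462, both with replicate 3 under replicate 1. PP2-A10, with 8, 10, 21 and 7 counts, was the third. None of the 6 past the filter was lowest in replicate 1 and highest in replicate 3, against 10.7% of all genes past it. The median log2 difference between replicate 3 and replicate 1 was 0.01, with a mean of -0.07, and the median turned to -0.03 when libraries were scaled by total counts.

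PP2-B genes also encode F-box proteins with a PP2 domain. Of 15 listed, 11 had a count and 7 passed the filter, and the median level over all 15 was 0.461 TPM. PP2-B10 was the highest at 15.3 ± 0.876 TPM and PP2-B15 the lowest past the filter at 0.882 ± 0.196 TPM (SD, n = 4). Of the 7 tested, 3 varied beyond counting error (42.9%), near the 42.8% of all genes tested. PP2-B11, a gene of abscisic acid signalling, had 39, 72, 95 and 52 counts and an excess BCV of 0.0573, with a log2 difference of 1.25 between replicate 3 and replicate 1. The other 2 called, SKIP3 and PP2-B1, were named after their values were seen. SKIP3 ran the other way, with 49, 27, 18 and 32 counts, an excess BCV of 0.0489 and a log2 difference of -1.45. PP2-B1 had 213, 267, 219 and 315 counts. Lowest in replicate 1 and highest in replicate 3 were 2 of the 7 past the filter (28.6%), against 10.7% of all genes past it. The list as a whole had a median difference of 0.01, with a mean of -0.14, and the median turned to -0.02 under total counts.

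Among the partners with which F-box proteins form a ligase, levels ranged widely. SKP1, the adaptor, stood at 249.7 ± 4.45 TPM and RBX1 at 79.4 ± 5.25 TPM (SD, n = 4). CSN5B, a subunit of the COP9 signalosome that removes RUB1 from the scaffold, was the lowest past the filter at 5.92 ± 0.283 TPM. Of 13 genes of the complex and its regulators, 11 had a count and 9 could be tested, of which 3 varied beyond counting error (33.3%), against 42.8% of all genes. ASK4, another adaptor of the SKP1 family, stood at 9.61 ± 1.06 TPM. ASK3 and ASK12 of that family had 0 counts in all 4 libraries, and ASK11 and ASK13 had 2 or fewer. These 5 genes were named after their values were seen. The summed level of the list differed between libraries by a highest-to-lowest ratio of 1.04, and RBX1, which had the largest excess BCV at 0.00291, had 1171, 1351, 1241 and 1095 counts.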

How the data were processed

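RNA of 4 libraries of prt6-1hyt1-1 seedlings was analysed. The authors deposited raw read counts per gene, made with HISAT2 2.1.0 and featureCounts 1.6.0 on TAIR10, per the submitters' processing notes. Not given in the sources used here are the annotation release, the strand setting and the treatment of reads with several positions. Columns were matched to samples on prt6-1 and the replicate number. For hyt1 in the labels the columns have hup40, and the sources used here tie neither to a gene. The title of replicate 4 misspells the genotype and was read as a misprint.

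Library totals ranged over 24743656 to 26155431 counts. Of 37885 identifiers, 37882 matched the RefSeq annotation of TAIR10.1, which gave names, exon lengths and sequences, and 3 did not. TPM and log2 CPM were computed with 0.5 counts added, CPM itself without, using TMM-scaled library sizes. BCV came from an intercept-only fit of 19940 genes in edgeR 4.0.16 under R 4.3.3. Homogeneity of counts was tested by chi-square with Benjamini-Hochberg adjustment over 20687 genes. Level ratios were tested by exact sign flips. The scripts were tested on simulated data. Coding sequences were aligned with Biopython 1.88.

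The genes and the 7 companion lists, with 108 genes, were chosen with earlier results of these data known. Named genes were all PP2-A genes, the highest, the lowest past the filter and the most variable of each list, the 5 genes most like PP2-A13, and the 2 most like each other member. Other scalings (DESeq2 1.42.0 size factors, total counts), lengths, a pseudocount of 5, no filter on low counts, and each replicate left out were tried.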

Additional observations from a re-analysis of the deposited data

Results flagged for a closer look

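Of 51 values examined for 1 library far from the other 3, 3 stood out, and all 3 concern seed transcripts in replicate 2. Chance flags about 1 in 20 groups of 4. In each, the gap between replicate 2 and its nearest neighbour was set against the whole range. Over the 2 seed markers past the filter, the median log2 deviation was -0.64, 2.54, -0.98 and -0.91 in replicates 1 to 4, a gap of 0.903. These markers are OLEO2 and CRA1, so the 3 values rest on 2 genes. The oleosin gene OLEO2 had 0.400, 4.05, 0.472 and 0.435 CPM, a gap of 0.980. The 12S globulin gene CRA1 had 6.36, 53.8, 3.38 and 4.03 CPM, a gap of 0.941. No PP2-A F-box gene stood out in this way.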

How the results depend on the processing

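Each of the 10 pairs kept its direction with other lengths, without length normalisation and with a pseudocount of 5. Scaling between libraries cancels in these ratios, and a pair with 1 sign in 4 libraries keeps it when 1 is left out, so those alternatives could not turn it. The adjusted p of the 4 genes other than PP2-A13 ran over 0.0951 to 0.964. The lengths without overlap or untranslated bases, the list means and the rescaled differences between replicates were added after the data were seen. The share of PP2-A13 was 61.1% over the length without overlap, and 49.6% to 53.4% with 1 replicate left out. With 1 replicate left out, the excess BCV ran over 0.0106 to 0.0489 for PP2-A13, -0.00724 to -0.00420 for PP2-A11, -0.0114 to -0.00306 for PP2-A12, -0.0133 to -0.00256 for PP2-A14, and -0.00725 to 0.00101 for PP2-A15. Coding length was put in for the 5 genes alone, and division by this shorter length had to raise all 5 levels. The log2 TPM of PP2-A13 became 6.40, against 5.65 over exons. The difference between replicate 3 and replicate 1 turned from 0.01 to -0.0212 for PP2-A11 under total counts. Under the same scaling the list medians became -0.0286 for other PP2-A genes and -0.0206 for PP2-B genes. With TMM scaling, the means of these 2 lists were -0.0675 and -0.138. The cause was not tested. No paired analysis was possible because there is 1 group. Counting error limits what can be seen of PP2-A12 and PP2-A14. Whole-seedling RNA does not locate a transcript.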
